A study of Mus musculus with 2 samples.

Results

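The miR-183 cluster and further epithelial microRNAs (miRNAs) were examined in cells of the mouse ureteric bud, the branching epithelial tube of the embryonic kidney from which the collecting ducts arise. The set comprised 6 of the 1040 mouse miRNAs on the array, chosen by name: mmu-miR-182, mmu-miR-183 and mmu-miR-96, which form a single genomic cluster, with mmu-miR-203, mmu-miR-205 and mmu-miR-375 (the mouse prefix mmu is left out below where it is not needed). Probes whose names end in an asterisk, which mark the opposite arm of a hairpin, were not members. Kidneys came from embryos of stage E15.5, named for the embryonic day, of genotype Rosa26YFP; Hoxb7Cre, and YFP-positive cells were sorted from the trypsinized tissue. The Hoxb7 transgene drives Cre in ureteric bud epithelium, and descendants of such cells keep the YFP label. The single group held 2 samples, replicate 1 (Cy3) and replicate 2 (Cy5), and the effect of the dye cannot be told apart from that of the sample. With no second group, the question for each miRNA is whether its signal stood above the array's blank spots and whether both samples gave it.

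The 3 hairpins of the miR-183 cluster are processed from a common precursor RNA, and the cluster is best known from sensory cells such as hair cells and photoreceptors, where changes in the miR-96 seed cause hearing loss. A miRNA finds its target mRNAs mainly by pairing through its seed, bases 2 to 8. In epithelia, miR-203 restrains proliferation of keratinocytes by repressing p63, miR-205 represses Zeb1 and Zeb2 alongside the miR-200 family, and miR-375 is known from pancreatic islets, where it limits insulin secretion.

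The array's target sequences are shown because the probes read them directly and because likeness between targets bears on the results. They are given 5′ to 3′ as the scanner tables list them, with the seed in capitals.
miR-182: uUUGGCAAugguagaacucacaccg
miR-183: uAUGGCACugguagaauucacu
miR-96: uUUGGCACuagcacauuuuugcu
miR-203: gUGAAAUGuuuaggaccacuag
miR-205: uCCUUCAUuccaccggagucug
miR-375: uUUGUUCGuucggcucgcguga
The targets of miR-182 and miR-96 share bases 2 to 7 and are the only pair among all 1040 targets to carry those letters at that place. No other target on the array had the same bases 2 to 8 as any of the 6. Counted from the 5′ end, miR-182 and miR-183 were identical at 18 of 22 aligned positions, with the differences U2A, A8C, C17U and A22U (miR-182 base first). The target of miR-96 matched miR-182 at 12 of 23 positions and miR-183 at 13 of 22. Beyond the seed, miR-182 and miR-183 shared 12 of 14 aligned bases, and miR-96 shared 5 of 15 with miR-182 and 6 of 14 with miR-183. The members that resemble each other most along their whole length are therefore miR-182 and miR-183. Pairs that involve miR-203, miR-205 or miR-375 matched at 3 to 8 of 22 positions.

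All 6 targets lay within the RefSeq hairpins of the same number (GRCm38.p6). The cluster's hairpins lie on the minus strand of chromosome 6, Mir183 at chr6:30169668-30169737, Mir96 at chr6:30169446-30169551 and Mir182 at chr6:30165918-30165992. Between Mir183 and Mir96 lie 116 bases, and between Mir96 and Mir182 lie 3453 bases. All 3 hairpins overlap the long non-coding RNA gene Mirc35hg, and the flanking protein-coding genes are Nrf1 and Ube2h. Their RefSeq sequences are shown with both measured arms in capitals, since the array carried a probe for each arm.
Mir183: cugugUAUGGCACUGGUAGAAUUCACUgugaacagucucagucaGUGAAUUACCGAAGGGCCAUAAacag
Mir96: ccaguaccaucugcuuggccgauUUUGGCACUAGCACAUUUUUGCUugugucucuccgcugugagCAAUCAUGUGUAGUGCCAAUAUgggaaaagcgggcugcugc
Mir182: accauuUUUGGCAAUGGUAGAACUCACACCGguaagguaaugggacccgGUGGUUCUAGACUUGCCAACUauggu
The other hairpins are dispersed. Mir203 lies at chr12:112130880-112130955 on the plus strand between the protein-coding genes Aspg and Kif26a. Mir205 lies at chr1:193507463-193507530 on the minus strand within the non-coding gene Mir205hg. Mir375 lies at chr1:74900658-74900721 on the minus strand between Cryba2, which encodes a lens crystallin, and Cfap65.

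Each miRNA had 3 repeat spots per array. The limit for a spot was set 3 SD above the mean raw intensity of the 560 blanks on the same array, at 303.2 units in replicate 1 and 81.1 units in replicate 2. Detection in a sample required that 50% or more of the repeat spots of a miRNA exceeded this limit. The blank spots averaged 203.9 and 58.9 units in replicates 1 and 2. The median miRNA spot lay above the blank mean in replicate 1, at 223.9 units, and below it in replicate 2, at 53.1 units. The limit in replicate 1 rests partly on 1 blank spot of 916.8 units, without which it would be 243.5 units. The labels do not say whether the samples came from separate litters or sorts, so their spread may be technical. In bulk samples fewer expressing cells and less RNA per cell cannot be told apart.

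Of the 6 miRNAs, miR-182 and miR-183 were detected in both samples, as were 5.96% of all 1040 probes. In each single array the same 2 of 6 passed, against 7.88% of all probes in replicate 1 and 6.15% in replicate 2. Every one of their 12 spots lay above the limit, and 0 of the 24 spots of the other 4 miRNAs did. The detected members are both from the cluster, and its member nearest to miR-183 on the chromosome, miR-96, was not among them.

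The 3 spots of mmu-miR-182 read 445.4, 479.7 and 434.9 units in replicate 1. In replicate 2 they read 98.3, 109.4 and 106.7 units. The median spot lay at 1.47 times the limit in replicate 1 and 1.31 times in replicate 2, so this miRNA was modestly above background in both arrays. After subtraction of the median blank, the coefficient of variation between its repeat spots was 9.37% and 12.4%. Its targets in other systems include the transcription factor Foxo1.

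The spots of mmu-miR-183 read 326.3, 375.6 and 328.0 units in replicate 1. In replicate 2 they read 128.8, 122.6 and 115.1 units. The median spot was close to the limit in replicate 1, at 1.08 times, and clearly over it in replicate 2, at 1.51 times. In replicate 1 it stood 3.75 blank SD above the blank mean, against 7.29 for miR-182 there. In replicate 2 the values were 8.59 blank SD for miR-183 and 6.44 for miR-182. The coefficient of variation of the blank-subtracted repeat spots of miR-183 was 19.98% and 10.8%.

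**Figure D1:**
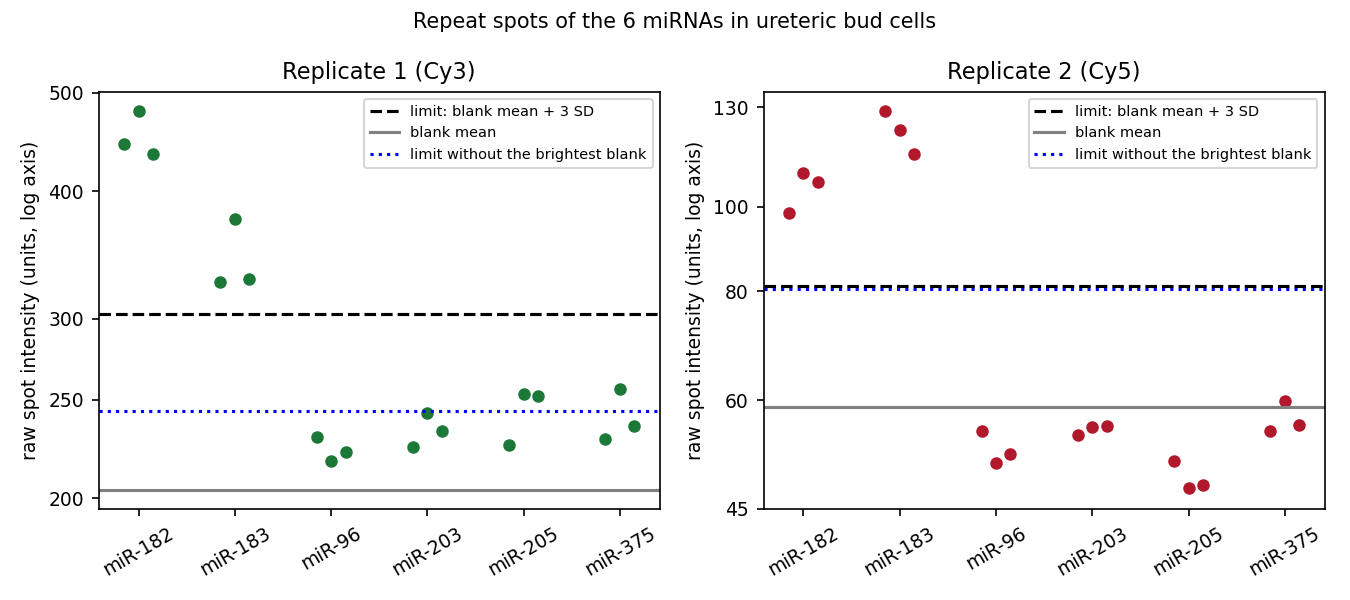
Raw intensity (units, log axis) of the 3 repeat spots of each of the 6 miRNAs in replicate 1 (Cy3, left) and replicate 2 (Cy5, right), with the blank mean (solid), the limit of blank mean plus 3 SD (dashed) and the limit without the brightest blank spot (dotted). All 12 spots of miR-182 and miR-183 lie above the dashed lines and the 24 spots of the other miRNAs below them, while 2 spots of miR-205 and 1 of miR-375 lie above the dotted line in replicate 1.

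These calls sat near the limit. With 6 blank SD in place of 3, miR-182 alone remained detected, where 4.33% of all probes were, and with 10 SD neither was (3.17% of all probes). With a limit drawn from the 20 blank spots nearest to each spot, 0 of 6 were detected, against 5.87% of all probes. The blank spots nearest to miR-182 and miR-183 were at least 13 rows away, and for 2 of 3 spots of each they included the spot of 916.8 units. Without that spot, both were detected by the local limits (6.44% of all probes), which then ran from 251.8 to 262.6 units in replicate 1.

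On the normalized log2 scale, miR-182 had a signal of 7.59 ± 0.10 (SD, n = 2) and miR-183 of 7.50 ± 0.71. Over the blank level of the arrays, miR-182 stood at 1.33 ± 0.18 log2 units and miR-183 at 1.23 ± 0.43 (SD, n = 2). Both means exceed 1 log2 unit, a 2-fold excess over blank, by little. By limma's treat test against that 2-fold bound, 0 of the 6 passed after Benjamini-Hochberg adjustment over all 1040 miRNAs, and 0 of the 6 had an unadjusted p under 0.05, where 3.46% and 4.33% of all probes did. The unadjusted p of this test was 0.143 for miR-182 and 0.226 for miR-183, and the adjusted p was 1.0 for each. The treat test was also run on simulated arrays, which lacked the bright probes of the real ones. It called 0% of signals added at 2 times the margin of 3 blank SD and 48% at 4 times. Neither miR-182 nor miR-183 stood as high as 4 times that margin in either array. The absence of treat calls therefore says little about either miRNA.

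The probe for mmu-miR-96 gave 230.0, 217.6 and 222.0 units in replicate 1. In replicate 2 its spots read 55.3, 50.9 and 52.0 units. These readings lie in the middle of the undetected probes: 49.5% of the 956 probes detected in neither sample had a lower median in replicate 1 and 41.9% in replicate 2. Over blank it averaged 0.02 ± 0.29 log2 units (SD, n = 2). Its brightest spot in replicate 1 stayed below 243.5 units, the limit there without the brightest blank spot. A signal of miR-96 was thus not detectable with these backgrounds. This leaves unknown whether the miRNA was present at a low level.

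The probe for mmu-miR-203 gave 224.4, 242.7 and 233.0 units in replicate 1. In replicate 2 its spots read 54.7, 55.9 and 56.0 units. All were below the blank mean of 58.9, as was the median miRNA spot of that array, at 53.1 units. The medians of miR-203 were 0.769 and 0.689 times the limits. The islet miRNA mmu-miR-375 behaved much alike, with 228.6, 256.1 and 235.6 units in replicate 1. Its spots in replicate 2 read 55.2, 59.9 and 56.2 units, the medians being 0.777 and 0.693 times the limits. Among probes detected in neither sample, the share with a lower median was 87.8% and 82.6% for miR-203, and 91.0% and 84.2% for miR-375, in replicates 1 and 2.

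The probe for mmu-miR-205 was below the limit in both arrays. In replicate 1 it gave 225.7, 253.2 and 252.2 units. In replicate 2 it gave 51.0, 47.6 and 48.0 units, below the blank mean, as was the median miRNA spot there (53.1 units). Its median exceeded 96.3% of the probes detected in neither sample in replicate 1, and 8.37% of them in replicate 2. At this height ranks rest on few units of intensity, and no difference between the samples is read from them. Of the 4 undetected miRNAs only this one would pass in replicate 1 with the limit of 243.5 units, where 12.8% of all probes would. It then still fails in replicate 2, at 0.591 times the limit there.

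**Figure D2:**
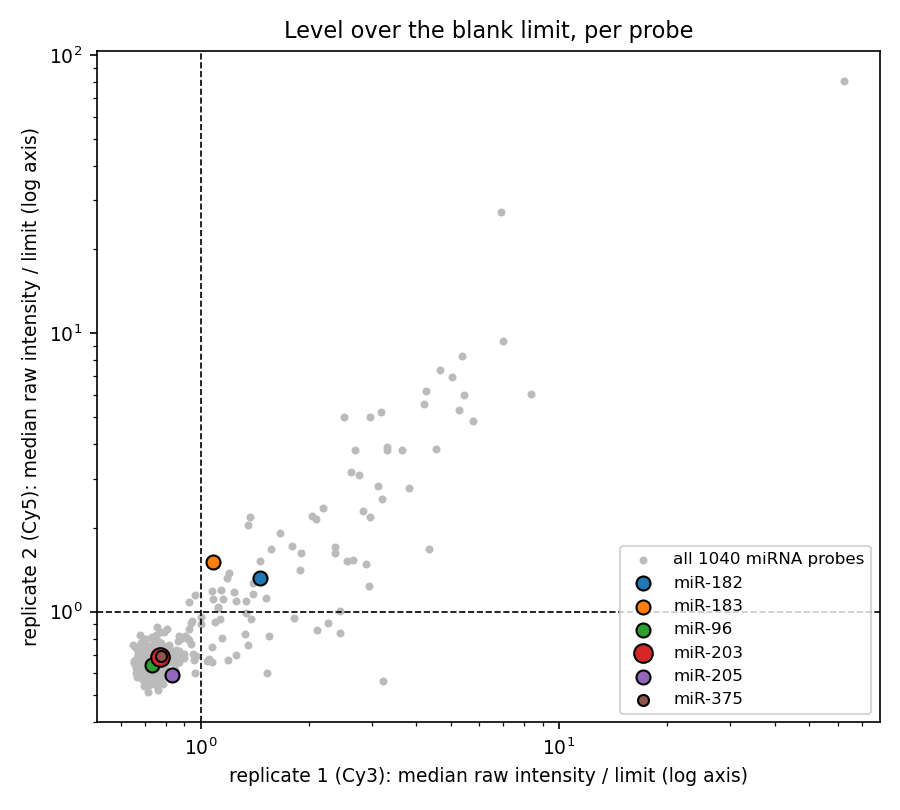
Median raw intensity over the limit in replicate 1 (horizontal, log axis) and replicate 2 (vertical, log axis) for all 1040 miRNA probes (grey) and the 6 miRNAs (coloured, with miR-203 drawn as a larger point under miR-375). Of the 6 miRNAs, miR-182 and miR-183 lie right of and above the dashed lines at 1, and the other 4 lie among the undetected probes.

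The opposite arm of every hairpin was on the array, and 0 of the 6 were detected in either sample, a count near the share of all probes (7.88% in replicate 1 and 6.15% in replicate 2). They gave 204.7 to 236.6 units in replicate 1 and 46.7 to 54.8 units in replicate 2 (medians of repeat spots). The member arm of Mir182 read 445.4 and 106.7 units, and the opposite arm 204.7 and 53.1 units, in replicates 1 and 2. The member arm of Mir183 read 328.0 and 122.6 units, and the opposite arm 217.5 and 53.2 units. Both detected miRNAs are 5p arms, drawn first in the hairpins shown above. The spots of miR-182* and miR-183* stood in array rows 68 and 70, directly next to those of miR-182 and miR-183 in rows 67 and 69 and in the same columns. Spots below the limit thus alternated with spots above it. Whether background in this part of the array bears on the signals was not tested. The nearest blank spots were at least 13 rows away.

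**Figure D3:**
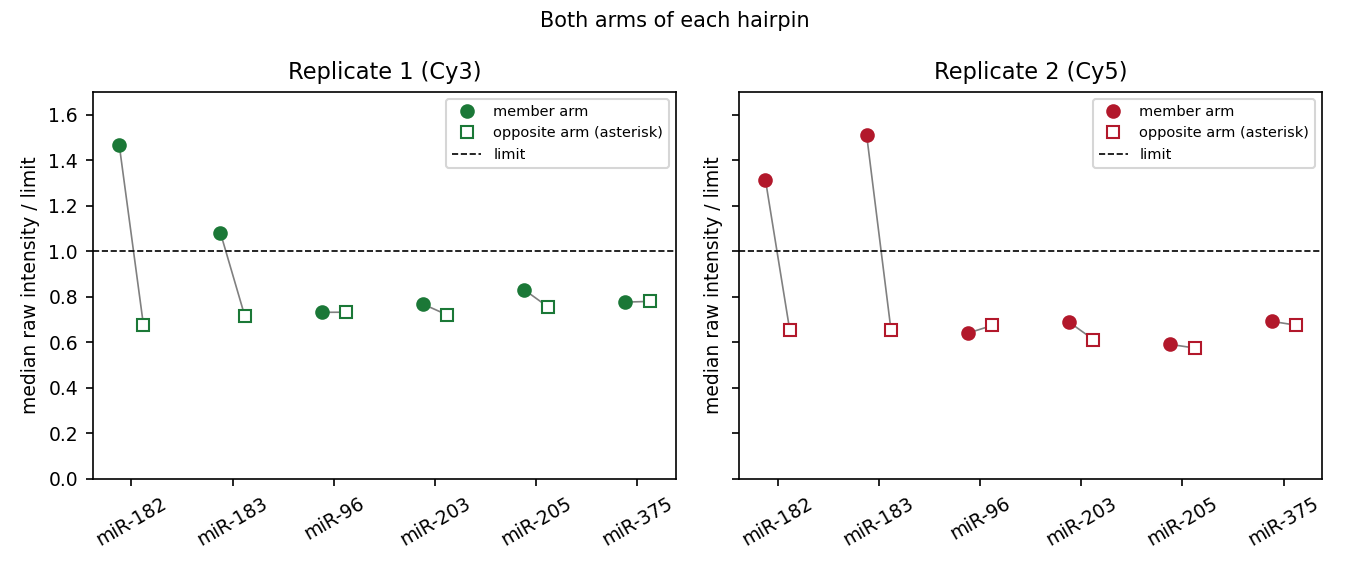
Median raw intensity over the limit for the member arm (filled circles) and the opposite arm (open squares) of each hairpin, in replicate 1 (left) and replicate 2 (right). Member and opposite arm are far apart for miR-182 and miR-183, where the opposite arms lie between 0.655 and 0.717, and close together for the other 4 hairpins.

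Since miR-182 and miR-183 differ at 4 of 22 positions, RNA of one may contribute to the spots of the other, and its part in either signal was not tested. The closest target outside the set was that of miR-1948 for miR-182, at 9 edits, and that of miR-124 for miR-183, at 7 edits. Neither of these was detected, with 220.1 and 46.3 units for miR-1948 and 219.3 and 57.1 units for miR-124. The distance between miR-182 and miR-183 themselves was 7 edits, which includes the 3 additional bases of miR-182. The 4 undetected miRNAs were at least 8 edits from any target outside the set. The GC content of the 6 targets ran from 39.1% to 54.5%, around the median of 47.8% for all targets. That of miR-182 was 48.0% and that of miR-183 40.9%. Whether GC content bears on the signal was not tested. The target of miR-182, with 25 bases, is among 26 of 1040 targets of at least that length.

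The detected members differed in how the samples compared. The normalized log2 signal of miR-182 was 7.52 in replicate 1 and 7.67 in replicate 2, a difference (replicate 1 minus replicate 2) of -0.15, and its repeat spots overlapped between the arrays. That of miR-183 was 6.99 in replicate 1 and 8.0 in replicate 2, a difference of -1.01. All 3 spots of miR-183 in replicate 2 (7.85 to 8.09) lay above all 3 in replicate 1 (6.99 to 7.24), and the SD between repeat spots was 0.14 in replicate 1 and 0.12 in replicate 2. Among the 62 miRNAs detected in both samples, miR-183 had the fourth lowest difference, and a change of 2-fold or more was seen for 8 miRNAs (12.9%). Over the 62 the median was -0.20. With 1 sample per dye, the difference of miR-183 has no replicate check.

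The sign of these differences depends on scaling. Without normalization between the arrays the differences were 1.48 for miR-182 and 0.64 for miR-183, while the 62 detected miRNAs had a median of 1.43 and all probes one of 0.69. With median scaling they were 0.95 and 0.12, beside medians of 0.91 for the detected and 0.17 for all miRNAs. Read against the median of the 62, miR-182 lay within -0.05 and 0.08 over 8 ways of processing. The values of miR-183 relative to that median were all negative but varied in size, from -0.68 without background correction to -1.81 with blank subtraction. Leaving out normalization and scaling by the median differ by a constant and so give the same relative value. Against the median of all probes, miR-183 was at -0.05 without normalization and at -1.001 with quantile normalization. Raw intensities over the median blank gave ratios of replicate 1 over replicate 2 of 5.02 for miR-182 and 1.95 for miR-183, with a median of 3.74 over the 62.

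**Figure D4:**
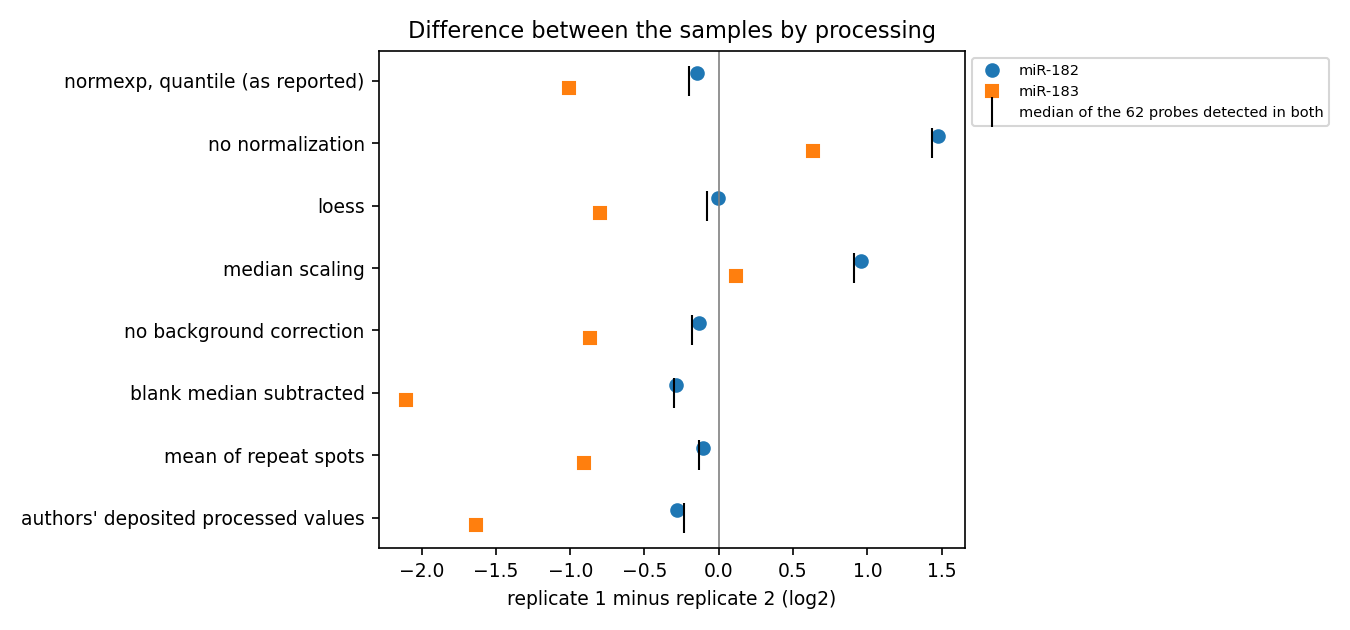
Difference between the samples (replicate 1 minus replicate 2, log2) of miR-182 (circles) and miR-183 (squares) under 8 ways of processing, with the median of the 62 miRNAs detected in both samples as a vertical mark. The circles follow the mark in every row, and the squares lie left of it in every row, from -0.68 to -1.81 relative to it.

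Processed values were also available. In the authors' deposited table miR-182 had 385 in replicate 1 and 468 in replicate 2. The authors' deposited table listed miR-183 at 194 and 603. For the undetected miRNAs the authors' deposited table gave 9 and 10 for miR-96, 19 and 11 for miR-203, 24 and 1 for miR-205, and 16 and 14 for miR-375. The median of all 1040 values in the authors' deposited table was 10 for replicate 1 and 9 for replicate 2, so miR-96 lay at the middle of the array there too. The larger value of miR-183 in replicate 2 in the authors' deposited table has the direction of the quantile-normalized signals and not that of the raw spots, which were brighter in replicate 1. The values of the authors' deposited table are whole numbers from 0 up and follow the raw intensities (Spearman's rho 0.833 and 0.910 across probes, which are not independent replicates), but how background was removed and the arrays scaled is unknown here.

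The sorted cells carried the markers of their label in part. The lists used here were chosen with earlier results of these data known. The miR-200 family maintains epithelial identity by repressing Zeb1 and Zeb2. Of its members, 3 of 5 were detected in both samples, against 5.96% of all probes. These were miR-200c, miR-200b and miR-429, at 6.96, 2.19 and 1.57 times the limit in replicate 1 and 9.36, 2.36 and 1.68 times in replicate 2. Undetected were miR-200a, at 0.787 and 0.639 times the limits in replicates 1 and 2, and miR-141, at 0.686 and 0.666 times. The 6 miRNAs had 2 detected members and medians of 0.804 and 0.691 times the limits, against 1.57 and 1.68 in the miR-200 family. Across all probes the medians were 0.735 and 0.655. Of 4 further epithelial miRNAs, miR-31, known from keratinocytes and hair follicles, was detected at 1.24 and 1.17 times the limits, and miR-34a, miR-224 and miR-30a were not. Of these miR-30a came nearest, at 0.942 and 0.912 times. Of the endocrine miRNAs often named with miR-375 (miR-7a, miR-7b, miR-9 and miR-124), 0 of 4 were detected. This is near the share of 5.96% over all probes. With 4 miRNAs per list, neither this count nor that of the further epithelial miRNAs sets the list apart.

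Markers of other cells that a sort could admit were mostly below the limits. Of 22 such miRNAs for mesenchyme, stroma and smooth muscle, for endothelium, blood and striated muscle, and for the nephron, 0 were detected in both arrays, and 1 passed in a single array. The count for both arrays is near the share of 5.96% over all probes, and does not set these markers apart. Over all 1040 probes, 20 passed in replicate 1 only and 2 in replicate 2 only. The marker that passed in a single array was the mesenchymal miR-214, at 0.927 and 1.08 times the limits in replicates 1 and 2. The summed blank-subtracted signal (values below blank taken as 0) of the 6 mesenchymal miRNAs was 168.5 units in replicate 1 and 29.6 in replicate 2. The summed signal of the 6 blood miRNAs was 69.0 and 0.57 units. In replicate 1 the median of all 1040 probes, 222.9 units, lay above the median blank of 203.1 units. In replicate 2 it lay below, at 53.1 against 58.4 units. The sums include this offset of the whole array, so no signal of a cell type and no difference between the samples is read from them. The endothelial miR-126-3p read 216.2 and 53.1 units, and the red cell miR-451 read 218.0 and 44.4 units, each among the values of undetected probes.

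**Figure D5:**
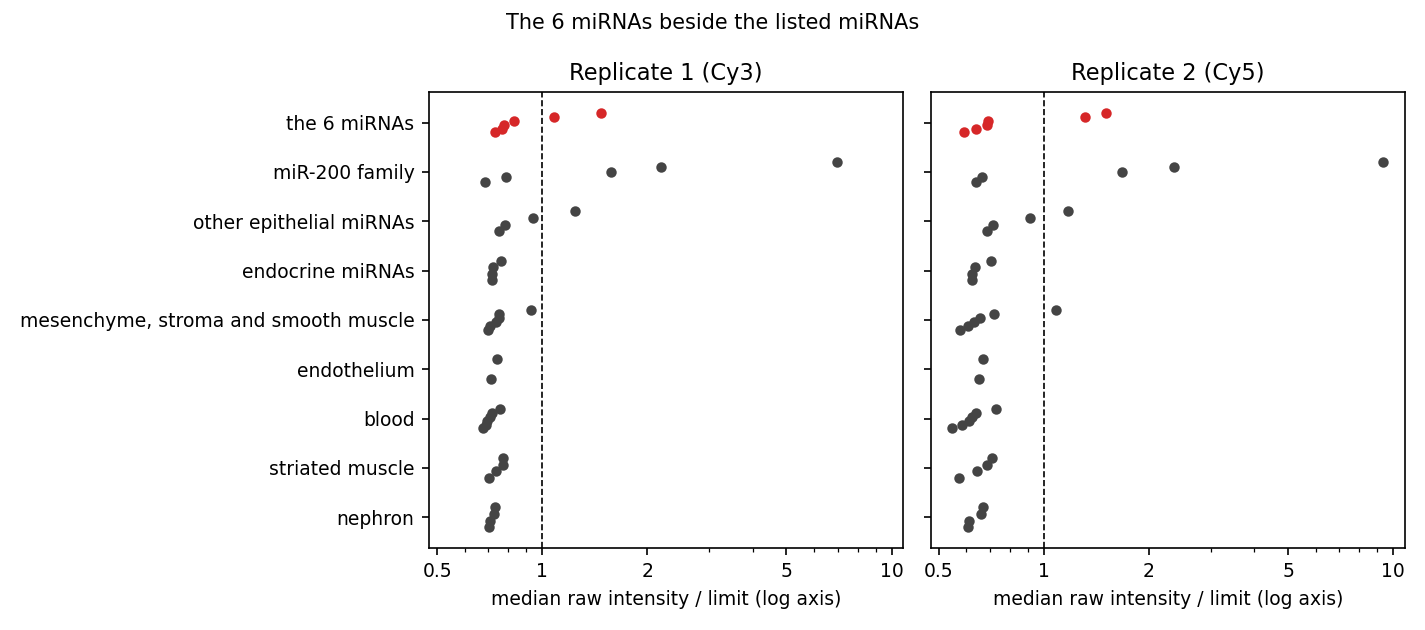
Median raw intensity over the limit (log axis) of each miRNA in replicate 1 (left) and replicate 2 (right), for the 6 miRNAs (top, red) and the listed miRNAs (black), with a dashed line at 1. The miR-200 family reaches higher values than miR-182 and miR-183 in both samples, and the lists of other cell types stay at or left of the line except miR-214 in replicate 2.

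The probes with the pattern most like the detected members were sought by the Euclidean distance of log2 intensity over the limit across the 2 samples. Nearest to miR-182 were miR-222 (0.09 log2 units), miR-181a (0.20) and miR-351 (0.21). The probe for miR-222 read 423.5 and 103.0 units, close to the 445.4 and 106.7 units of miR-182. Nearest to miR-183 were miR-30c (0.20), miR-30d (0.24) and miR-361 (0.34). The probe for miR-30c read 363.8 and 111.3 units, against 328.0 and 122.6 units for miR-183. With 2 samples, such likeness says only that the probes stood at a similar height above background on both arrays.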

How the data were processed

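A service provider ran the miRNA arrays, per the labels' protocols. From 4 µg of total RNA per sample, molecules under 300 nt were isolated, tailed, tagged and stained. The authors deposited raw spot intensity (mean and SD within the spot), per the file headers, with no background removed, and a table of processed intensity in whole numbers whose making is not given in the sources used here. No genome build is named there. Coordinates and hairpins are those of RefSeq for GRCm38.p6, found by exact match of the array targets, of which 5 of the 6 members also matched a named mature entry.

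Detection used raw intensity against blank spots. For signal levels, normexp background correction (offset 50), log2, quantile normalization over miRNA spots and the median of 3 repeat spots were applied, in limma 3.58.1 under R 4.3.3. Blank spots were carried through the same map, and the treat test (2-fold bound, trend in the variance, threshold 0.05) was fitted to all 1040 miRNAs. Its prior degrees of freedom were infinite, so probes of like signal shared 1 variance. Sequence, count and figure steps used Python 3.11.15. On simulated arrays, signals just at the limit were mostly missed and stronger ones found by the spot rule, and the treat test needed several times that height to make calls. Precision is limited by the 2 arrays. The miRNAs named are the 6 members, their opposite arms, the lists and the nearest probes by pattern or sequence. Members and lists were chosen with earlier results of these data known. Alternatives changed the limit, the repeat-spot rule, the background correction, the normalization and the samples used.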

Additional observations from a re-analysis of the deposited data

How the results depend on the processing

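The local limit without the brightest blank spot and the difference in the authors' deposited table were added after seeing the data. The 2 miRNAs of the set detected in both samples, miR-182 and miR-183, became 1 with 6 blank SD, 0 with 10 SD and 0 with the local limit, and stayed 2 under 7 other limits and spot rules and with either sample left out (2 to 2). The 62 detections over all probes became 33 with 10 SD and ran from 64 to 82 with 1 sample. The treat test gave 0 calls in the set under each of 8 alternatives. These 0 calls are not read as stability. On simulated arrays the test called 0% of signals at 2 times the margin of 3 blank SD and 48% at 4 times. Those arrays lacked the bright probes of the real ones, so the shares may differ there. The 36 treat calls over all probes became 2 without normalization, 2 with median scaling and 13 with a 4-fold bound. The difference of miR-182 (-0.15) turned to 1.48 without normalization and 0.95 with median scaling, and was -0.0035 with loess, -0.29 with blank subtraction and -0.28 in the authors' deposited table. That of miR-183 (-1.01) turned to 0.64 and 0.12 under the same scalings and was -2.11 with blank subtraction. The cause of these changes was not tested, beyond recomputing the local limit without the brightest blank spot. Detection from the processed table was not run, as it holds no blank spots, nor treat after blank subtraction, where the blank level is 0, nor treat on 1 sample. No paired analysis was possible because there was a single group. Signal over background limits all statements on undetected miRNAs.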

Other observations

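The 3 repeat spots of a probe were printed in separate blocks of columns. In replicate 1 the middle spot was the brightest for 5 of the 6 miRNAs, as it was for 47.5% of all 1040 probes. In replicate 2 this held for 2 of the 6 and for 40.7% of all probes. The spots of the 4 undetected miRNAs had a median of 247.9 units at the middle position in replicate 1, against 227.1 and 234.3 units at the outer ones, while over all probes the medians were 225.5 at the middle and 224.5 and 222.6 at the outer positions. The values of miR-205 and miR-375 nearest to the limit in replicate 1 were those middle spots. Whether position on the array bears on them was not tested.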
